A study of Mus musculus with 6 samples.

Results

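The genes of the proteasome were examined in C2C12 myotubes, the muscle fibre-like cells that form when this mouse myoblast line differentiates, in which SENP7 was knocked down. They were all genes of the deposited table whose name is Psma, Psmb, Psmc or Psmd followed by a number, without the inducible catalytic subunits Psmb8, Psmb9 and Psmb10, and they numbered 36 of 55401 genes. One group of 3 libraries came from myotubes given the GL2 siRNA, a control directed against a luciferase sequence, and the other group of 3 from myotubes given an siRNA directed at SENP7, which cleaves SUMO chains. Both groups were kept in medium with 2% horse serum and received 100 pmol of siRNA for 3 days, and poly(A) RNA was sequenced. All libraries come from a single immortal cell line, the submitters describe the 3 libraries of a group as biological replicates, and the knockdown was partial.

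The proteasome is the protease of the cytosol and nucleus that degrades proteins tagged with ubiquitin. Its barrel-shaped core particle has outer rings of alpha subunits (Psma genes), which gate the entrance, and inner rings of beta subunits (Psmb genes), which hold the catalytic sites inside. The regulatory particle has a base, whose ring of ATPases (Psmc genes) unfolds substrates, and a lid (Psmd genes), which removes the ubiquitin chain. In muscle the ubiquitin-proteasome system is the main route for the breakdown of myofibrillar proteins, and its subunit genes are known to be induced together during atrophy.

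The libraries held 25223218 to 30865945 reads assigned to genes. Senp7, the siRNA target, had normalized counts of 556.4, 616.4 and 648.8 with control siRNA and 275.0, 279.2 and 346.7 with SENP7 siRNA (log2 fold change -1.02 ± 0.11, SE; adjusted p = 0.000428, limma). All 7 myotube markers passed the filter on low values, with summed normalized counts of 516958 to 533355 in the control and 559963 to 640666 in the SENP7 siRNA libraries. Among them Ckm, the muscle creatine kinase gene, rose 1.98-fold (adjusted p = 0.00149, limma) and Mymk, which encodes a membrane protein of myoblast fusion, rose 1.37-fold (adjusted p = 0.00428, limma). The other 5 did not pass. Myh3, Tnnt3, Myog and Acta1 had positive log2 fold changes (0.35, 0.30, 0.28 and 0.16). Only Des, the desmin gene, had a negative one (-0.20), at 112839 ± 13858 and 98027 ± 5260 (SD). Of 4 macrophage markers, Adgre1 was at 0 in all libraries and the list summed to 53.4 to 62.3 in the control and 43.9 to 55.9 in the SENP7 siRNA libraries. Markers of cycling cells summed to 5670 to 7758 and 5022 to 6588, with 0 of 5 past the threshold. Of 4 myoblast and reserve cell markers, Pax7 rose and Cd34 fell, and their sum was 2816 to 3295 and 2871 to 3151. Of 4 fibroblast markers Dcn rose, from 991.3 ± 335 to 1984 ± 195 (SD), and Pdgfra, at 280.5 ± 57.3 and 253.0 ± 49.6, did not pass. Tcf21 was at 0 and Thy1 at most at 3.55, and the list summed to 1042 to 1724 and 2022 to 2501. The part of these shifts in cell markers in the results was not tested, and in bulk RNA fewer cells of a type and less RNA per cell cannot be told apart.

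Replicate 3 stood apart in the proteasome genes of both groups. Of 34 proteasome genes tested, 29 had their lowest control value in control replicate 3, and 34 had their lowest SENP7 siRNA value in SENP7 replicate 3. Over all tested genes 41.1% were lowest in control replicate 3 of the control group and 42.0% in SENP7 replicate 3 of the SENP7 siRNA group. Relative to its group mean the median proteasome gene lay at -0.08 (log2) in control replicate 3 and -0.10 in SENP7 replicate 3, against 0.09 in control replicate 1, 0.05 in SENP7 replicate 1 and 0.06 in SENP7 replicate 2. Over all tested genes the same medians lay between -0.0052 and 0.0073. SENP7 replicates 1 and 2 were close to each other, with a mean chi-square per gene of 1.70 over all tested genes and 1.18 over the proteasome genes, where counting noise alone gives about 1 and every other pair of the same group gave at least 5.39. Both were kept as separate replicates, as the submitters describe them.

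Most proteasome transcripts differed between the groups by less than the spread of the libraries, and a single gene, the assembly chaperone gene Psmd10, passed the test. Of the 36 genes, 34 met the filter (10 or more normalized counts in 3 or more libraries). In limma on log2(normalized count + 1), with Benjamini-Hochberg adjustment over 14668 tested genes, 0 proteasome genes were higher and 1 was lower after SENP7 siRNA, and 33 did not pass an adjusted p of 0.05. Over all tested genes 20.9% were called, 10.2% higher and 10.7% lower. An unadjusted p under 0.05 was reached by 5 of the 34 genes and by 34.4% of all tested genes. On the recovered reads, edgeR (quasi-likelihood) called 2 higher and 1 lower (20.6% of all genes called), and DESeq2 called 1 higher and 2 lower (20.5%). Without control replicate 3, limma called 2 higher and 3 lower, where 32.1% of all tested genes were called. With the replicate number as a block, limma also called 2 higher and 3 lower. That fit called 2052 of all tested genes higher and 2123 lower.

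Most of the fold changes were small as well as uncalled. The median log2 fold change of the 34 genes was -0.04, beside -0.0025 over all tested genes, and 28 of the 34 lay within 0.1 of 0, as did 32.5% of all tested genes. The standard deviation of the log2 fold changes was 0.13 among the 34 genes and 0.49 among all tested genes. The 95% intervals of 31 of the 34 genes lay entirely within 0.4 of 0 on the log2 scale, a 1.32-fold change. Among the 33 genes that did not pass, the intervals reached at most from -0.49 to 0.43, so changes of up to 1.41-fold downwards and 1.34-fold upwards are compatible with the data for single genes. The median of the 34 genes turned positive under quantile normalization (0.0068), without control replicate 1 (0.03) and without SENP7 replicate 3 (0.02).

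**Figure D1:**
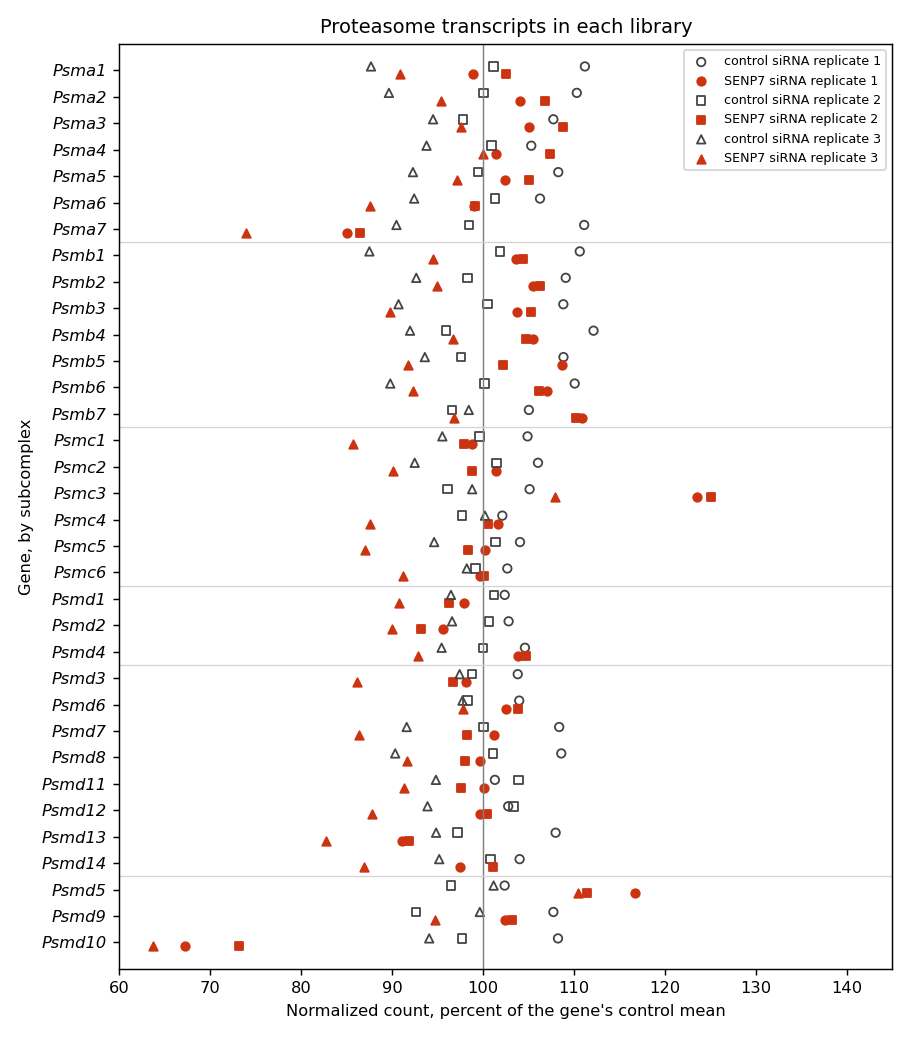
Each row is a proteasome gene, grouped by subcomplex, and the horizontal axis gives its normalized count in each library as a percent of that gene's mean in the 3 control libraries; open symbols are control siRNA and filled red symbols SENP7 siRNA, with 1 symbol shape per replicate number. The groups overlap in 28 of the 34 genes, the filled symbols of Psmd10 lie clear to the left, and the triangles (replicate 3) are the lowest of their group in most rows.

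The groups overlapped in 28 of the 34 genes. All SENP7 siRNA values lay above all control values in 2 genes, Psmc3 and Psmd5, and below them in 4, Psmd10, Psma7, Psmd13 and Psmd2. Over all tested genes, 19.3% were separated upwards, 20.4% downwards and 39.6% in either direction.

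Psmd10 encodes gankyrin, an ankyrin repeat protein that chaperones the assembly of the base and is not part of the mature proteasome. The gene lies on the minus strand of chromosome X from 140948429 to 140956728 (ENSMUSG00000031429.14, GRCm38), and none of its exon sequence overlaps an exon of another gene. Its normalized counts were 791.2, 714.3 and 687.7 with control siRNA (replicates 1, 2 and 3) and 491.5, 534.9 and 466.1 with SENP7 siRNA (in the same order). Every SENP7 siRNA library was thus below every control library. The mean fell 1.47-fold, from 731.1 ± 53.8 to 497.5 ± 34.8 (SD, n = 3 each), and the log2 fold change was -0.55 ± 0.08 (SE; adjusted p = 0.00232, limma). The call held in all 18 alternative settings, with log2 fold changes from -0.61 to -0.50 and adjusted p of at most 0.0157. In the authors' deposited table its log2 fold change was -0.53 (adjusted p = 1.1e-05), and 3 proteasome genes had an adjusted p under 0.05 there, beside 9.26% of the 27493 genes with one. That set is wider than the 14668 genes tested here, since it includes genes under the filter, so its share is not like the 20.9% called here.

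The other base chaperones that carry Psmd names did not pass the test. Psmd5, which keeps base precursors from joining the core too early, had 1435, 1353 and 1418 with control siRNA and 1636, 1562 and 1549 with SENP7 siRNA. Its groups did not overlap, with the SENP7 siRNA values higher, and its log2 fold change of 0.17 ± 0.06 missed the threshold (adjusted p = 0.0601, limma). Over the alternatives its adjusted p ran from 0.0422 to 0.232, and 3 settings called it, including the one that left out control replicate 3 (0.0423). Psmd9, a PDZ domain chaperone of the base, was at 1091, 937.9 and 1009 and at 1036, 1044 and 958.7, with overlapping groups and a log2 fold change of 0.0026 (95% interval -0.16 to 0.17).

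Promoter sequence was set beside these differences, since Psmd10 alone passed the test. RefSeq windows (GRCm38.p6) of 300 bases, 250 before to 50 after a start site, were given for 29 of the 36 genes, and Psma6 and Psmc2 had 2 windows each. The 250 bases before the start are shown for Psmd10, the gene that fell, Psma7, the alpha ring gene with the lowest fold change, and Psmb5, a catalytic gene with little difference between groups. They lie on the minus strand at chrX:140956712-140956961, chr2:180042465-180042714 and chr14:54617996-54618245. Capitals mark CCAAT or its reverse complement ATTGG, the core of the site of the factor NF-Y, and TGANNNNGC or GCNNNNTCA, a loose form of the element bound by heterodimers of small Maf and CNC factors such as the proteasome gene activator NFE2L1.
Psmd10: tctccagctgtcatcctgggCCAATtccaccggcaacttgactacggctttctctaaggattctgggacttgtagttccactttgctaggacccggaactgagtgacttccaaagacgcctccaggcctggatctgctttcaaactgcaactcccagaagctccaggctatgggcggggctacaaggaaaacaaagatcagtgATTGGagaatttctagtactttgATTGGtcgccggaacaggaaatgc
Psma7: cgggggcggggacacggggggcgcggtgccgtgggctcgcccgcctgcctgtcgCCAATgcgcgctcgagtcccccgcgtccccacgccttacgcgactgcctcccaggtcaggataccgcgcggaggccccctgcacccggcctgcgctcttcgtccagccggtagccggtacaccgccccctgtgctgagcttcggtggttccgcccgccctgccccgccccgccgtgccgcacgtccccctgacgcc
Psmb5: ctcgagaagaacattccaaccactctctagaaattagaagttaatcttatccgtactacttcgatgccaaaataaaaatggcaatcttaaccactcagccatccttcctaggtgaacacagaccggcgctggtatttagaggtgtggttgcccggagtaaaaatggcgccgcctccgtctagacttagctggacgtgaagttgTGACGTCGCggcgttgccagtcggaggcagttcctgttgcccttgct
The Psmd10 window held CCAAT 3 times, 230 bases before the start on the gene's strand and 47 and 24 bases before it on the other strand, and no TGANNNNGC. With the 50 bases after the start included, the windows of Psma3, Psmd4 and Psmd14 also held CCAAT 3 times and no TGANNNNGC. These genes did not pass the test, at log2 fold changes of 0.05, 0.0054 and -0.07. Psma7 held CCAAT once, 196 bases before the start, and Psmb5 held a TGANNNNGC match 47 bases before it. Within the 50 bases after the start, not shown, Psma7 had its only TGANNNNGC match and Psmb5 a further one. On either strand TGANNNNGC was found in 17 of 29 proteasome genes (58.6%) and in 41.3% of all 32851 windows, and CCAAT in 12 of 29 (41.4%) and 37.4%. The GC box letters GGGCGG were found in 18 of 29 (62.1%) and 35.7%, and the strict form TGACTCAGC, which is contained in TGANNNNGC, in 0 of 29 and 0.454%. These proteasome shares count genes, while the shares over all windows count windows. Over the 31 windows of the proteasome genes they were 58.1% for TGANNNNGC, 38.7% for CCAAT and 58.1% for GGGCGG. The windows of the proteasome genes had a median GC content of 56.7%, beside 52.7% over all windows. These matches describe the letters of the windows only.

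None of the 14 tested genes of the core particle passed the test. In the alpha ring, whose subunits gate the barrel, 4 of 7 genes had positive and 3 negative log2 fold changes, with a median of 0.02 and a range of -0.29 to 0.05. Psma7 was the lowest, with counts of 4334, 3839.4 and 3529 with control siRNA and 3316, 3371 and 2885 with SENP7 siRNA. The highest SENP7 siRNA value lay just under the lowest control value. Its log2 fold change was -0.29 ± 0.09, and it missed the threshold narrowly (adjusted p = 0.0513, limma). It passed in 5 of 18 settings, among them DESeq2 (adjusted p = 0.0278) and the fit that left out control replicate 3 (adjusted p = 0.00633), and its adjusted p ran from 0.00398 to 0.157 over the alternatives. In the authors' deposited table it was at -0.28 with an adjusted p of 0.0483. The gene lies on chromosome 2 from 180036374 to 180042433, with no exon shared with another gene, and like Psmd2, Psmd13 and Psmd14 it is described after its values were seen. The other 6 alpha ring genes lay between -0.07 and 0.05, and all had overlapping groups.

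The beta ring was the most even subcomplex among those with more than 3 genes, with a standard deviation of the log2 fold changes of 0.03. Of its 7 genes 6 were positive and 1 negative, the median was 0.03 and the range -0.0058 to 0.08. Its catalytic subunits were close to the control level. Psmb5, which carries the chymotrypsin-like site and is the main target of bortezomib, was at 1804, 1618 and 1551 with control siRNA and 1801, 1693 and 1520 with SENP7 siRNA. Psmb6, with the caspase-like site, was at 4796, 4363 and 3912 and at 4664, 4625 and 4022. Psmb7, with the trypsin-like site, was at 5807, 5338 and 5441 and at 6127, 6096 and 5353. In all 3 the groups overlapped, and the ratio of SENP7 siRNA to control means lay between 1.01 and 1.06. The 95% intervals of their log2 fold changes were -0.17 to 0.20, -0.17 to 0.23 and -0.08 to 0.24. Exon sequence of Mir686 on the same strand covers 12.1% of the exon length of Psmb5. For Psmb7, exons of Nek6 on the opposite strand cover 11.8%.

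The constitutive catalytic genes have inducible counterparts, which interferon switches on. Psmb10, the counterpart of Psmb7, had 403.2, 348.2 and 334.6 with control siRNA and 504.8, 531.7 and 505.9 with SENP7 siRNA, which did not overlap, and it rose by 0.51 ± 0.09 on the log2 scale (SE; adjusted p = 0.00473, limma). Psmb8 and Psmb9 were under the filter, at 0.973 to 6.68 and 0 to 2.02 with control siRNA and 7.99 to 18.0 and 2.84 to 4.28 with SENP7 siRNA. The tissue-restricted core forms were near or at 0. Psma8, the testis form of an alpha subunit, had 0 reads in each of the 6 libraries, where a count of 0 allows up to 3 reads per library by counting error alone. Psmb11, the catalytic subunit of thymus epithelium, had 1, 2 and 0 reads with control siRNA and 0, 3 and 0 with SENP7 siRNA.

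In the regulatory particle 14 of 17 genes had a negative and 3 a positive log2 fold change, and none passed the test. Among the 6 base ATPases 5 were negative, between -0.09 and -0.05. Psmc3 was the exception and had the highest fold change of all 34 genes. Its counts were 13765, 12585 and 12938 with control siRNA and 16176, 16374 and 14131 with SENP7 siRNA, and SENP7 replicate 3 lay nearest to the controls without reaching them. The means were 13096 ± 606 and 15560 ± 1242 (SD, n = 3 each), and the log2 fold change of 0.25 ± 0.08 missed the threshold (adjusted p = 0.0566, limma). Psmc3 passed in 8 of 18 settings, among them edgeR with TMM (0.0479), DESeq2 (0.013), and without control replicate 3 (0.0371) or SENP7 replicate 3 (0.0303), with adjusted p from 0.013 to 0.217 over the alternatives. In the authors' deposited table it was at 0.24 with an adjusted p of 0.0315. The gene lies on chromosome 2 from 91054009 to 91066369, and exons of Slc39a13 on the opposite strand cover 8.25% of its exon length. Psmc5, the ATPase next to it in level per length, was at 5669, 5521 and 5154 and at 5460, 5355 and 4737, with overlapping groups and a log2 fold change of -0.07 (95% interval -0.24 to 0.09).

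The non-ATPase subunits of the base and the lid leaned to small negative values. Psmd2, a large scaffold and ubiquitin receptor of the base, was at 14964, 14646 and 14059 with control siRNA and 13920, 13568 and 13104 with SENP7 siRNA. The groups did not overlap, yet the log2 fold change was -0.11 ± 0.06 (adjusted p = 0.283, limma). Psmd4, the other ubiquitin receptor among them, had a log2 fold change of 0.0054. Of 8 lid genes 7 were negative, with a median of -0.07 and a range of -0.17 to 0.02. Psmd13, a structural lid subunit, was the lowest, at 3767, 3391 and 3308 with control siRNA and 3177, 3204 and 2885 with SENP7 siRNA, which did not overlap. Its log2 fold change was -0.17 ± 0.07 (adjusted p = 0.116, limma), it passed in 2 of 18 settings, one of them without control replicate 3 (adjusted p 0.0386 there, and up to 0.302 over the alternatives), and exons of Sirt3 on the opposite strand cover 10.1% of its exon length. Psmd14, the metalloprotease that cuts ubiquitin from substrates, was at 3285, 3184 and 3006 and at 3078, 3192 and 2746, with overlapping groups and a log2 fold change of -0.07 (adjusted p = 0.507, limma).

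The number of core genes with positive values depended on single libraries, while most regulatory genes were negative whichever library was left out. With all libraries, 10 of 14 core genes and 3 of 17 regulatory genes were positive, with medians of 0.03 and -0.06. Without control replicate 3, 2 of 14 core genes and 2 of 17 regulatory genes were positive. Without SENP7 replicate 3 the numbers were 12 and 6. The median of the regulatory genes was negative in every alternative setting (-0.11 to -0.0096), and that of the core genes ran from -0.04 to 0.09. The difference between the particles was not tested.

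**Figure D2:**
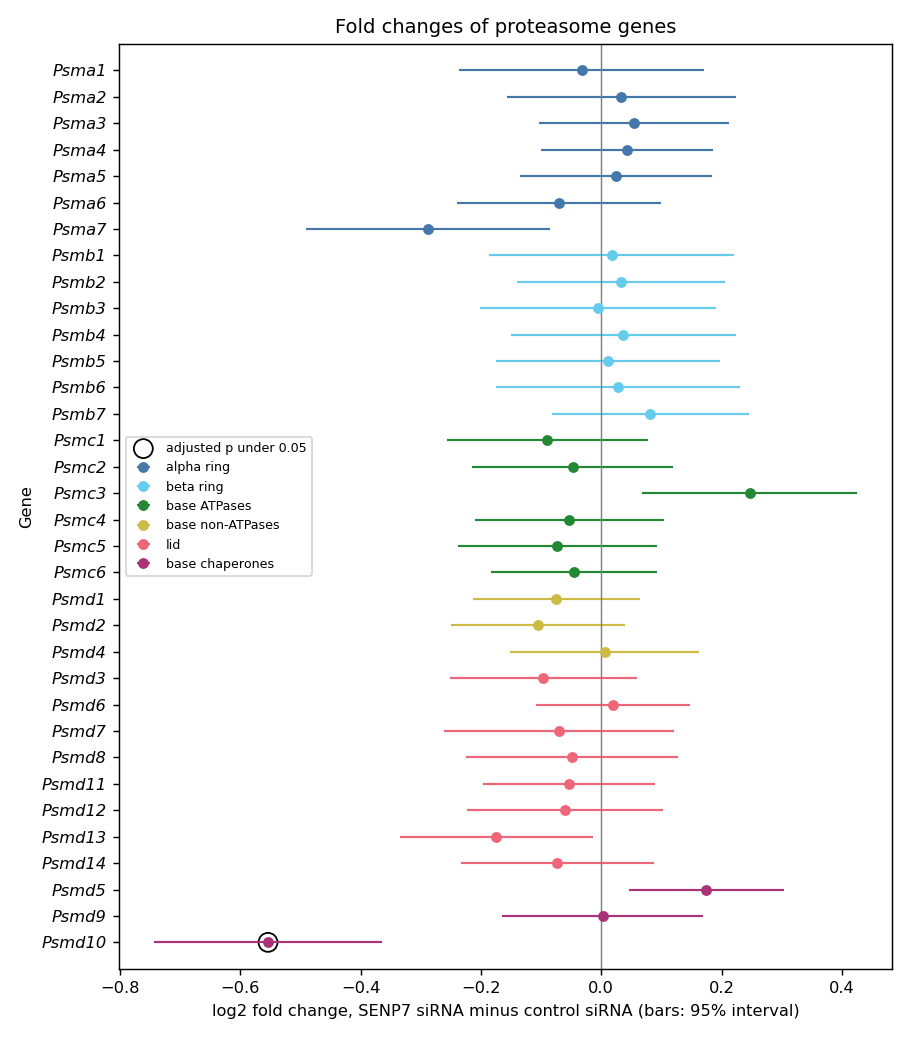
Points are log2 fold changes (SENP7 minus control siRNA) for the 34 tested genes, coloured by subcomplex, and bars are 95% intervals from limma. A black ring marks an adjusted p under 0.05; only Psmd10, at -0.55, has one, and the 7 beta ring genes lie between -0.0058 and 0.08.

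Summed over genes, each subcomplex had overlapping groups. The 7 alpha ring genes summed to 25640, 23541 and 21610 with control siRNA and to 23427, 24073 and 21574 with SENP7 siRNA. The 7 beta ring genes summed to 30396, 27459 and 25607 and to 29600, 29493 and 26233. The 6 base ATPases summed to 40388, 38157 and 37455 and to 41793, 41679 and 36688. Replicate 3 was the lowest library of its group in all of these sums. The 3 non-ATPase base genes averaged 28004 ± 954 and 26610 ± 1047, and the 8 lid genes 34980 ± 1958 and 33342 ± 1993. Over all 34 genes the sums averaged 156213 ± 8894 and 154565 ± 9201 (SD, n = 3 each), a ratio of 0.989, and the genes took up 0.565% ± 0.025 of all assigned reads with control siRNA and 0.568% ± 0.030 with SENP7 siRNA.

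**Figure D3:**
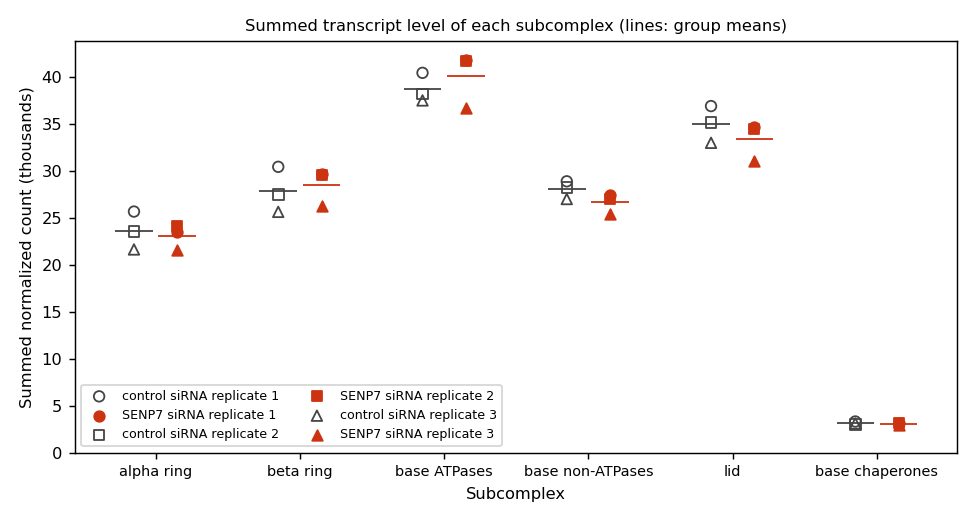
The vertical axis gives the normalized counts summed over the tested genes of each subcomplex, for each library, on the scale printed on the axis; symbols are libraries and horizontal lines are group means. The symbols of the 2 groups overlap in every subcomplex, and replicate 3 (triangles) is lowest in the rings, the base and the lid.

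Per kilobase of exon the subunit genes were not expressed at a common level. In the control libraries the normalized count per kilobase had a median of 1414 over the 34 genes and spanned 36.0-fold. Psmc3 was the highest (5023 ± 232), followed by Psmc5 (3908 ± 190), and 2 base chaperones were the lowest, Psmd5 (193.9 ± 6.0) and Psmd9 (139.7 ± 10.5). Psmd10 stood just above these, at 497.7 ± 36.6, so the 3 chaperones lay below all 31 structural subunits. Of the 33 pairs of neighbours in the order, 25 had overlapping control values, and the order of the middle ranks is therefore not resolved. In the SENP7 siRNA libraries 19 of the 34 genes had the same rank, and the largest shift was 6 ranks, of Psma7. The lengths are unions of all annotated exons, which differ from the transcript in use, so levels of genes with long alternative exons are understated.

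**Figure D4:**
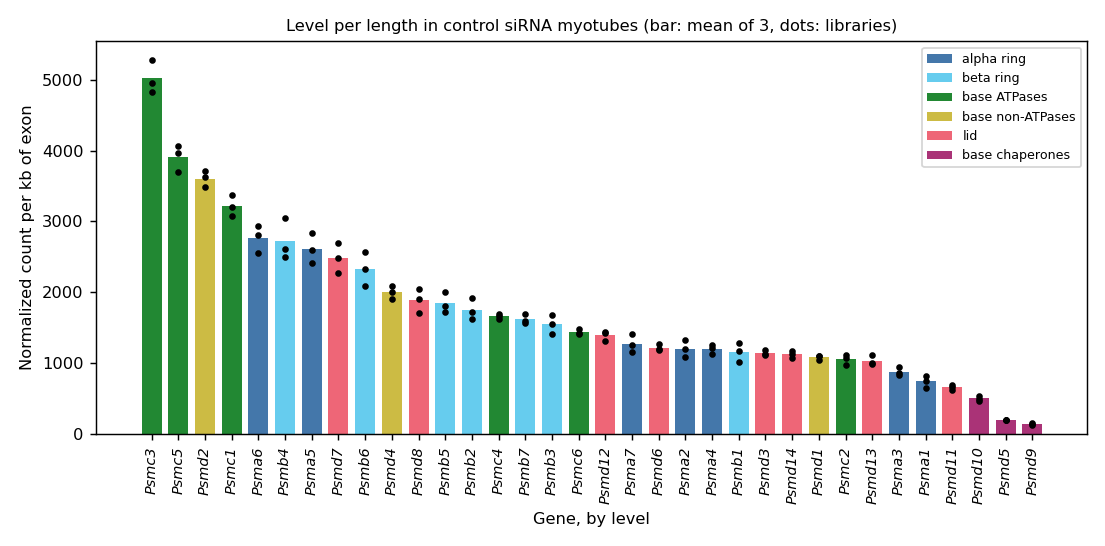
Bars give the mean normalized count per kilobase of exon in the 3 control libraries for each of the 34 tested genes in descending order, dots the single libraries, and colours the subcomplex. Psmc3 leads at 5023, and the 3 base chaperones close the order between 497.7 and 139.7.

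The share of other pathway genes past the threshold was near that of all tested genes. Lists of 50 genes that build, activate, load or regulate the proteasome held 48 tested genes, of which 5 rose, 6 fell and 37 did not pass, where 10.2% of all tested genes were higher and 10.7% lower. The median log2 fold change was -0.02. Adrm1 and Sem1, subunits outside the naming rule, did not pass (-0.02 and -0.04), and 0 of 5 core assembly factors passed (median 0.12).

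Among the activators and the inhibitor 1 of 5 fell. It was Psme4, which encodes a large cap that opens the core without ubiquitin. Psme4 had 6721, 7679 and 7798 with control siRNA and 5624, 5335 and 5557 with SENP7 siRNA, which did not overlap, and a log2 fold change of -0.42 ± 0.07 (adjusted p = 0.004, limma). Of 6 genes for ubiquitin and its activating enzymes 1 fell, Uba6, the second activating enzyme beside Uba1. Uba6 was at 1118, 1286 and 1175 and at 695.6, 677.2 and 760.7, a 1.68-fold fall (log2 fold change -0.74 ± 0.08, adjusted p = 0.000351, limma). Uba1 itself had -0.06 and did not pass. Both Psme4 and Uba6 passed in all 18 alternative settings.

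Of 13 genes for the transcription of proteasome genes and the processing of their activator, 2 rose and 2 fell. Nfe2l1, the transcription factor that restores proteasome synthesis when the proteasome is inhibited, was at 22033, 23140 and 22312 with control siRNA and 20681, 19998 and 19255 with SENP7 siRNA. The groups did not overlap, and its log2 fold change of -0.17 ± 0.07 missed the threshold (adjusted p = 0.106, limma) and passed in 1 setting. Maff, a small Maf partner, fell 1.88-fold, from 777.7 ± 104 to 412.7 ± 31.6 (adjusted p = 0.000729, limma). Nfe2l2, the related stress factor, fell (-0.27 ± 0.06, adjusted p = 0.0154, limma), and lost the call without SENP7 replicate 1 (adjusted p = 0.0869) or 2 (0.0762), with 0.0038 to 0.0869 over the alternatives. Ngly1, the glycanase that edits NFE2L1 into its active form, rose from 811.8 ± 55.9 to 1068 ± 39.0 (log2 fold change 0.40 ± 0.07, adjusted p = 0.00492, limma). Nfyb, a subunit of the CCAAT factor NF-Y, rose from 541.7 ± 22.9 to 678.7 ± 4.86 (adjusted p = 0.0094, limma), but not when SENP7 replicate 1 (adjusted p = 0.0531) or 2 (0.0506) was left out, with 0.00431 to 0.0531 over the alternatives.

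Among 11 proteasome-bound and shuttle protein genes 2 rose. Ubqln4, a shuttle for ubiquitinated proteins, rose from 2225 ± 181 to 2794 ± 41.1 (adjusted p = 0.0091, limma), and lost the call when control replicate 2 was left out (adjusted p = 0.0517; 0.000342 to 0.0517 over the alternatives). Uchl5, a deubiquitinase of the regulatory particle, was higher by 0.21 ± 0.06 (adjusted p = 0.0364, limma), a call lost in 7 of 18 settings, among them when any library other than control replicate 3 was left out, with adjusted p from 0.0259 to 0.164. Of 5 genes for cofactors of VCP, the ATPase that extracts ubiquitinated proteins, 2 fell. Nploc4 fell (-0.24 ± 0.05, adjusted p = 0.0151, limma), without the call when control replicate 2 (adjusted p = 0.0645), SENP7 replicate 2 (0.074) or SENP7 replicate 3 (0.0504) was left out, with 0.00355 to 0.074 over the alternatives. Faf1 fell (-0.23 ± 0.07, adjusted p = 0.0442, limma), a call lost in 6 settings, among them when any library other than control replicate 3 was left out, with adjusted p from 0.01 to 0.138. Vcp itself was at -0.05 and did not pass.

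**Figure D5:**
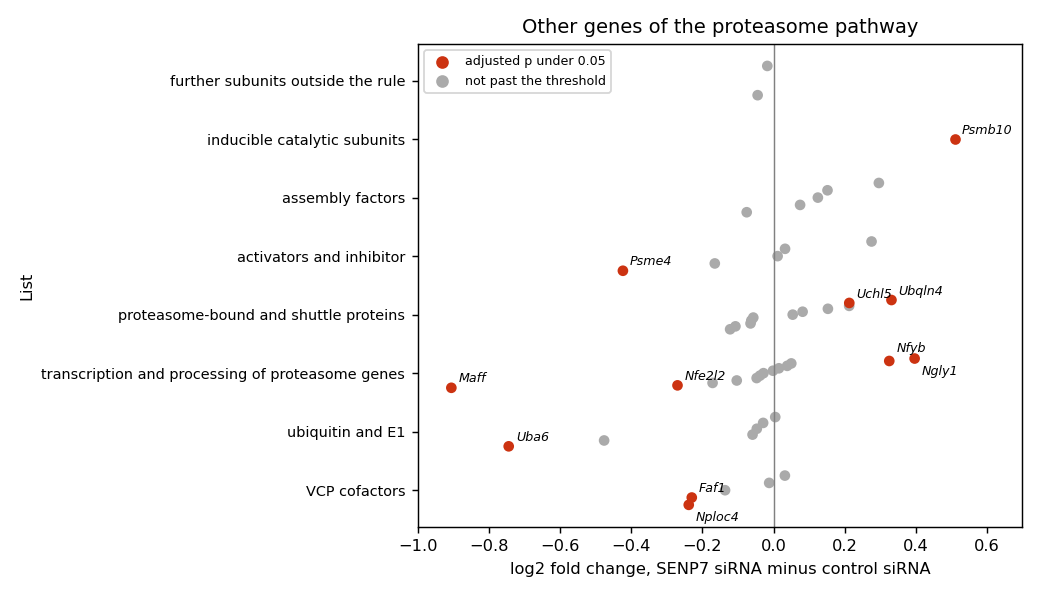
Each point is a tested gene of 1 of 8 lists (rows), placed by its log2 fold change (SENP7 minus control siRNA); red points with names have an adjusted p under 0.05 and grey points do not. The named genes run from Maff at -0.91 to Psmb10 at 0.51.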

How the data were processed

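Poly(A) RNA-seq libraries, 3 per group, were analysed. The submitters' processing notes name STAR 2.6.1d, featureCounts 1.6.4, Trim Galore 0.6.4, bcl2fastq, DESeq2 and GRCm38.p6 (not given in the sources used here: strand setting and annotation release). The authors deposited a normalized signal per gene and library, from the values a read count divided by 1 factor per library, and their log2 fold change, Wald score and p-value, per the file headers. Dividing each normalized count by the step of its library gave whole reads (tolerance 0.1 read) for 100% of positive values. The values were tested with limma 3.58.1 (R 4.3.3, robust trend) on log2(normalized count + 1), which understates changes of low genes. P-values are two-sided and measure the spread between these libraries. They take SENP7 replicates 1 and 2 as independent, and are too small if these close libraries are not. Alternatives used edgeR 4.0.16, DESeq2 1.42.0, limma-voom, a replicate block, other scalings, filters and pseudocounts, and each library left out; edgeR with the deposited size factors was chosen after seeing the data. The procedure was tested on simulated data in which all libraries were independent. That simulation held neither the closeness of SENP7 replicates 1 and 2 nor the shift of replicate 3. The rule for named genes took Senp7, proteasome genes past the threshold, the catalytic subunits, the extremes of fold change and level, genes under the filter, Nfe2l1 and up to 4 genes past the threshold per pathway list. Other genes were named after their values were seen. The proteasome genes and the other lists were chosen with earlier results of these data known. Of 36 genes, 28 share no exon sequence with another gene, and the largest overlap was 12.1%, in Psmb5.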

Additional observations from a re-analysis of the deposited data

How the results depend on the processing

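Of the 34 proteasome genes, Psmd10 passed the test in all 18 alternative settings, 4 passed in some (Psma7, Psmc3, Psmd5 and Psmd13) and 29 in none. The count of higher proteasome genes (0) became 2 with edgeR and TMM, 1 with DESeq2, 1 with limma-voom, 1 under quantile normalization and 1 without a filter on low values. The count of lower genes (1) became 2 with DESeq2, 2 under upper-quartile scaling and 2 without a filter. Over all tested genes edgeR with TMM called 20.6%, DESeq2 20.5% and limma-voom 20.4%. Quantile normalization called 1544 of all tested genes higher and 1552 lower, and upper-quartile scaling 1464 and 1633. Without a filter these numbers were 1573 and 1528, of 27493 genes. Leaving out 1 library gave 0 to 2 higher and 1 to 3 lower, the most without control replicate 3. Among all tested genes 1492 were higher and 1570 lower, with 714 to 2289 and 732 to 2368 when 1 library was left out (fewest higher without SENP7 replicate 2, fewest lower without control replicate 2, most without control replicate 3), and 718 and 680 at an adjusted p under 0.01. The pathway lists gave 3 to 6 higher and 3 to 7 lower genes without 1 library, against 5 and 6. The ratio of summed levels (0.989) ran from 0.963 to 1.02 without 1 library, with 1.02 under quantile normalization and 1.01 from CPM.

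With the replicate number as a block, 2 proteasome genes were higher and 3 lower, 8 pathway genes were higher, and 2052 and 2123 of all tested genes were called. The main test did not take the numbers as pairs. Deviations of same-numbered libraries correlated with r = 0.13, 0.06 and 0.25 over 14668 genes, and control replicate 1 gave 0.14 with SENP7 replicate 2. Replicate 3 of each group correlated negatively with replicates 1 and 2 of the other group (-0.22 to -0.10). SENP7 replicates 1 and 2 were close to each other, so these values cannot decide how they match control replicates 1 and 2. Between the groups, replicate 3 correlated positively only with replicate 3 (r = 0.25). Whether the libraries were prepared as pairs was not tested.

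The sign turned in 17 genes whose values lie near 0, at most to 0.08 in size. Psmb3 turned to 0.0012 with edgeR and TMM, 0.0017 with limma-voom and 0.024 under quantile normalization, which also turned Psmc2 (0.0063), Psmc6 (0.0030) and Psmd8 (0.0073), and Psmd9 turned to -0.00066 under upper-quartile scaling. When 1 library was left out, the ranges were Psma1 -0.12 to 0.047, Psma2 -0.043 to 0.11, Psma4 -0.0029 to 0.081, Psma5 -0.032 to 0.083, Psmb1 -0.076 to 0.094, Psmb2 -0.021 to 0.097, Psmb3 -0.074 to 0.067, Psmb4 -0.021 to 0.12, Psmb5 -0.044 to 0.078, Psmb6 -0.047 to 0.10, Psmc2 -0.10 to 0.0036, Psmc4 -0.092 to 0.016, Psmd12 -0.11 to 0.0022, Psmd4 -0.028 to 0.061, Psmd8 -0.12 to 0.012, Psmd9 -0.051 to 0.058. The cause of these differences between settings was not tested.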
